A study of Mus musculus with 14 samples.

Results

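The G1 cyclins, the kinases they activate and the inhibitors that hold those kinases in check were examined in mouse embryonic hearts that lacked Irx3, Irx5 or both. The 10 genes listed were Ccnd1, Ccnd2, Ccnd3, Ccne1, Ccne2, Cdk4, Cdk6, Cdkn1a, Cdkn1b and Cdkn1c. They were listed by name for their place in the pathway, with earlier results of these data known, and 9 of the 10 had a usable value among the 19931 genes measured. The only probe set for Cdkn1a also carries the symbol 4930567H12Rik, so its signal cannot be assigned to Cdkn1a and no value is given for that gene. For Cdkn1b, which has 2 probe sets, the one with the higher mean was used.

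Hearts of E12.5 embryos (E for the embryonic day) were measured on Affymetrix Mouse Gene 1.0 ST arrays, a platform with probes spread along each transcript. Values are log2 intensities, so a difference of 1 is a doubling. There were 3 arrays of Irx5+/- hearts, which the series names as the reference, 4 of Irx3-/-;Irx5+/- hearts, 3 of Irx5-/- hearts and 4 of Irx3-/-;Irx5-/- hearts, called double mutants here. Each of these genotypes carries at least 1 mutant Irx5 allele, so no comparison is with a wild-type heart, and both Irx5-/- and the reference are given without an Irx3 mutation. Per the labels, PicoPure columns yielded the RNA, of which 1 ng was amplified. How the alleles were made, and whether an array held 1 embryo or a pool, is not stated in the labels.

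Irx3 and Irx5 encode homeodomain transcription factors of the Iroquois family. In G1, D-type cyclins bind CDK4 and CDK6 and begin the phosphorylation of the retinoblastoma protein, and E-type cyclins with CDK2 complete it, which releases E2F factors and commits the cell to DNA replication. The CIP/KIP proteins p21, p27 and p57, encoded by Cdkn1a, Cdkn1b and Cdkn1c, bind these complexes and block CDK2. In the embryonic heart, D-type cyclins are known for driving cardiomyocyte division, and the loss of all of them together leaves a thin, poorly dividing ventricular wall.

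Irx3 signal ranged from 7.6 to 8.17 on the 8 arrays labelled Irx3-/- and from 8.14 to 8.53 on the 6 others. The highest of the 8, Irx3-/-;Irx5+/- replicate 4 at 8.17, lay inside the range of the Irx5-/- arrays, and its description names Irx5-/- embryos while its title, source and genotype do not. Irx5 signal ranged from 7.52 to 8.43 on the 7 arrays labelled Irx5-/- and from 8.19 to 8.41 on the 7 labelled Irx5+/-, so the groups overlapped. Where the probes lie relative to the altered part of each gene is not given in the sources used, so these signals are no firm check of the labels. Of 18 cardiomyocyte markers, such as Myl7 and Tnni1, 14 stood in the top 25% of genes on every array. Irx5+/- replicate 3 stood apart by the mean of those markers, at -1.69 relative to the mean of all arrays, against -0.62 for the next lowest array, Irx5+/- replicate 2. Array medians ran from 7.89 to 7.99. In whole hearts, fewer cells of a type and less RNA per cell cannot be told apart.

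In the double mutants, Ccnd1 stood above every array of the other 3 genotypes. Cdkn1c stood below every reference array in all 3 mutant genotypes. Neither difference passed an adjusted p of 0.05, and the same holds for the other 7 genes in each of the 6 comparisons fitted by limma. By group mean Cdkn1c was lowest in Irx5-/- hearts, whose arrays overlapped those of the double mutants. Each difference is given on the log2 scale with its SE.

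**Figure D1:**
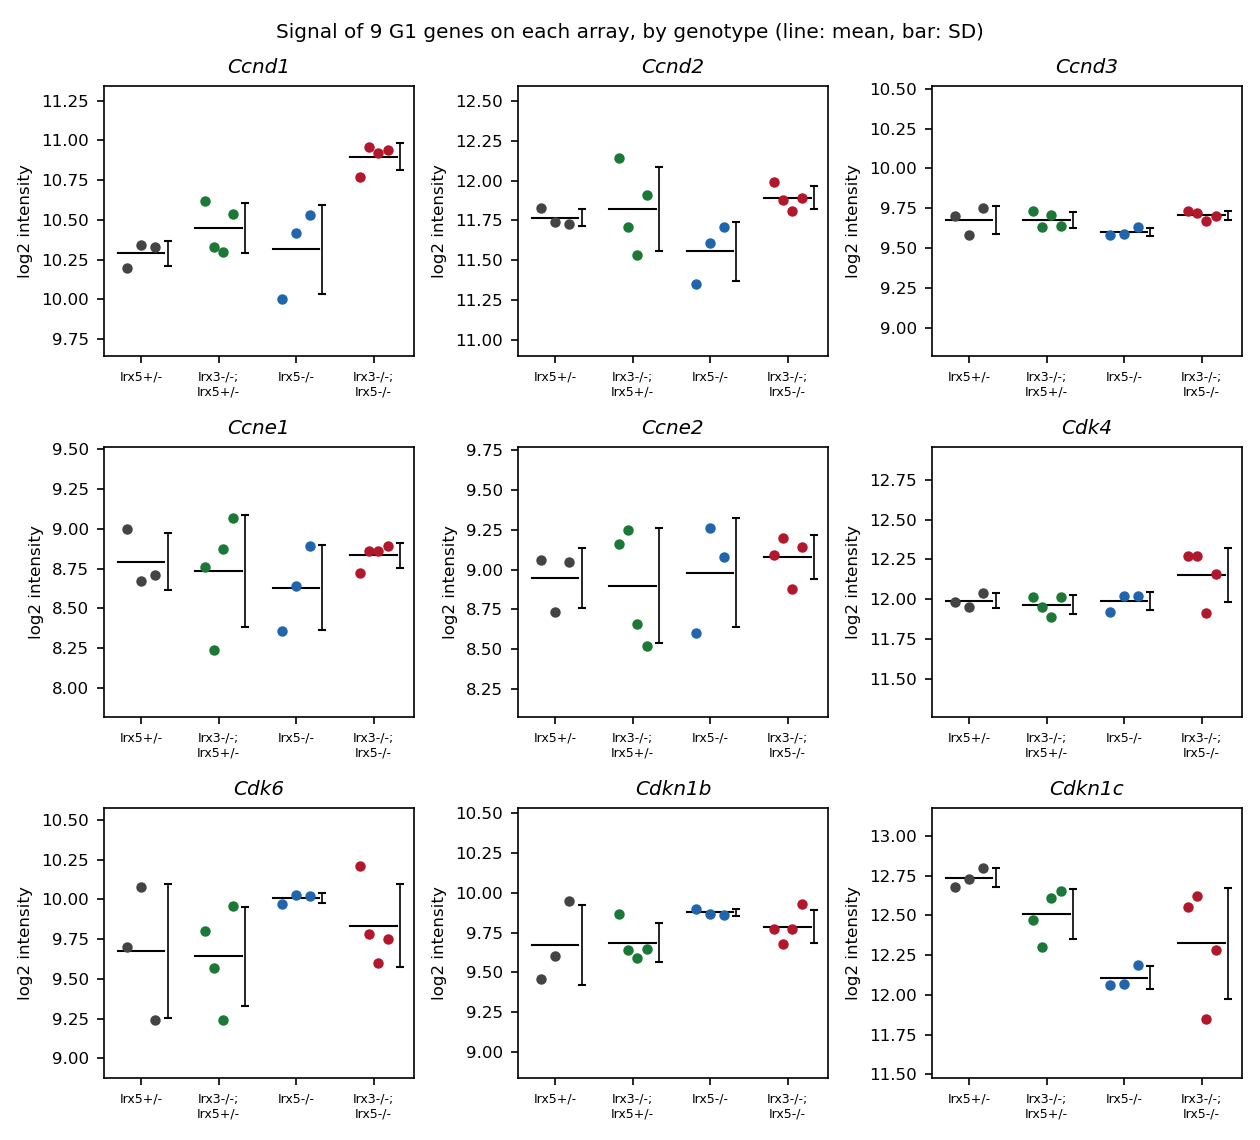
Log2 intensity of the 9 measured genes on each of the 14 arrays (points), by genotype, with the group mean (line) and SD (bar). Every panel spans the same log2 range around its own gene, so heights compare within a panel and not between panels. The 4 double-mutant points of Ccnd1 sit between 10.77 and 10.96, above all other arrays, and the 3 Irx5-/- points of Cdkn1c sit between 12.06 and 12.19.

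Ccnd1 encodes cyclin D1, which links growth factor signals to the cell cycle. Its log2 intensity was 10.20, 10.34 and 10.33 in the 3 reference hearts. It was 10.62, 10.33, 10.30 and 10.54 in Irx3-/-;Irx5+/- hearts and 10, 10.42 and 10.53 in Irx5-/- hearts. In the double mutants it was 10.77, 10.96, 10.92 and 10.94. The lowest double mutant therefore lay above the highest array of any other genotype, while those 3 genotypes overlapped one another. Against the reference the double mutants were higher by 0.61 ± 0.13 (SE), a fold of 1.52 with a 95% interval from 1.26 to 1.84, and the adjusted p was 0.111 in limma, rank 54 of 19931 genes. The difference was 0.45 ± 0.12 (SE) against Irx3-/-;Irx5+/- hearts (adjusted p = 0.444 in limma) and 0.58 ± 0.13 (SE) against Irx5-/- hearts (adjusted p = 0.796 in limma, rank 12). Against the reference, the single mutants differed by 0.16 ± 0.13 (SE) for Irx3-/-;Irx5+/- and by 0.03 ± 0.14 (SE) for Irx5-/-. These comparisons share arrays, so they are not separate evidence.

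The excess of Ccnd1 in double mutants over the sum of the single-mutant differences, the interaction term, was 0.42 ± 0.18 (SE), and it did not pass (adjusted p = 1.0 in limma). Without Irx5-/- replicate 1, the array with the lowest Ccnd1 value, it was 0.27. The difference between double mutants and reference stayed between 0.56 and 0.65 when any 1 of those arrays was left out, and was 0.63 without Irx5+/- replicate 3. Against Irx3-/-;Irx5+/- hearts it was 0.48 without replicate 4 of that genotype, the array whose description differs.

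Ccnd2 encodes cyclin D2. Its log2 intensity was 11.83, 11.74 and 11.73 in the reference, 12.14, 11.71, 11.53 and 11.91 in Irx3-/-;Irx5+/- hearts, 11.35, 11.61 and 11.71 in Irx5-/- hearts, and 11.99, 11.88, 11.81 and 11.89 in double mutants. The Irx5-/- arrays lay below all reference and all double-mutant arrays, and the Irx3-/-;Irx5+/- arrays, from 11.53 to 12.14, overlapped every other genotype. Irx5-/- hearts differed from the reference by -0.21 ± 0.14 (SE; adjusted p = 0.601 in limma), or by -0.10 without Irx5-/- replicate 1. Double mutants stood 0.34 ± 0.13 (SE) above Irx5-/- hearts (adjusted p = 0.9997 in limma). Double mutants and reference differed by 0.13 ± 0.13 (SE), with a 95% interval from -0.15 to 0.42.

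Ccnd3, for cyclin D3, varied least of the 9 genes by the SE of its differences. The 14 arrays lay between 9.58 and 9.75. Double mutants had a mean of 9.7 ± 0.03 (SD, n = 4) and Irx5-/- hearts one of 9.6 ± 0.03 (SD, n = 3). Means were 9.68 ± 0.05 (SD, n = 4) for Irx3-/-;Irx5+/- and 9.68 ± 0.09 (SD, n = 3) for the reference. The 4 double-mutant arrays, from 9.67 to 9.73, stood above the 3 Irx5-/- arrays, from 9.58 to 9.63, by a mean of 0.10 ± 0.08 (SE). That difference has a 95% interval from -0.06 to 0.27 and did not pass. Against the reference the double mutants differed by 0.03 ± 0.08 (SE), with an interval from -0.14 to 0.19. Its upper bound is below the unadjusted lower bound of 0.33 for Ccnd1, which itself did not pass. The double mutants had the highest group mean for the 3 D-type cyclins, and also for Ccne1, Ccne2 and Cdk4. Between double mutants and Irx5-/- hearts 3 of the 9 genes, the D-type cyclins, did not overlap, where 4.11% of all genes did not. All 3 were read on the same arrays, and none of these differences passed.

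Ccne1 and Ccne2 encode the E-type cyclins, which act later in G1 with CDK2. Double mutants had a Ccne1 mean of 8.83 ± 0.08 (SD, n = 4), and the reference one of 8.79 ± 0.18 (SD, n = 3). The Ccne1 mean was 8.73 ± 0.35 (SD, n = 4) for Irx3-/-;Irx5+/- and 8.63 ± 0.27 (SD, n = 3) for Irx5-/-. Its arrays ran from 8.24 to 9.07, and both of these extremes were Irx3-/-;Irx5+/- hearts. For Ccne2 the means were 9.08 ± 0.14 (SD, n = 4), 8.95 ± 0.18 (SD, n = 3), 8.9 ± 0.36 (SD, n = 4) and 8.98 ± 0.34 (SD, n = 3), in the same order of genotypes. The groups overlapped in every comparison of both genes. For double mutants against reference, Ccne1 differed by 0.04 ± 0.18 (SE) and Ccne2 by 0.13 ± 0.19 (SE), with 95% intervals from -0.34 to 0.42 and from -0.29 to 0.55. Those intervals reach past 0.33, the unadjusted lower bound of Ccnd1, which itself did not pass. The E-type cyclins are therefore undecided at this number of arrays.

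Cdk4 and Cdk6 encode the kinase partners of the D-type cyclins. For each, the stretch of 250 bases before a transcript start is shown because Cdk4 is a known target of MYC proteins. The MYC family genes Myc and Mycn were both measured among the other G1 genes. Capitals mark the E-box CACGTG, the palindromic site that MYC proteins bind, which reads the same on both strands. The sequences are from RefSeq (GRCm38.p6), 5′ to 3′ on the plus strand. The Cdk4 stretch ends just before the annotated start of the gene, while the Cdk6 stretch lies before a transcript start inside the gene's annotated span.
Cdk4, chr10:127063285-127063534: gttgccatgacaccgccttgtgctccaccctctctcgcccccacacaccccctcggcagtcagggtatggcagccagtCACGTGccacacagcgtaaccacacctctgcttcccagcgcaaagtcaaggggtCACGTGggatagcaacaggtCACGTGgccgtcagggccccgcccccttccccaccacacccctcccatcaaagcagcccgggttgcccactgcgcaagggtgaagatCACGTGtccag
Cdk6, chr5:3343643-3343892: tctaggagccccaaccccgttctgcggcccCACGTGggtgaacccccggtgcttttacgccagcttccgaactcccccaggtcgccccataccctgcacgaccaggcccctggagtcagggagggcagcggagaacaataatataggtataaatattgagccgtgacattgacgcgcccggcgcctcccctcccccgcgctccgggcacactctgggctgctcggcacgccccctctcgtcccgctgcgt
The Cdk4 stretch holds 4 copies, which begin 172, 118, 98 and 11 bases before the transcript start, and the Cdk6 stretch holds 1, at 220 bases before that internal start. Of 32851 mouse promoter stretches of the same length, 1978 (6.02%) hold the E-box at least once and 7 (0.0213%) hold 4 or more. The 6 stretches found for Ccne1, Ccnd3, Cdkn1a and Cdkn1b, with 2 each for Ccnd3 and Cdkn1a, do not hold these letters. No stretch was available for Ccnd1, Ccnd2, Ccne2 and Cdkn1c, so they were not searched. A match is a description of the sequence and shows no binding.

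Cdk4 log2 intensity was 11.98, 11.95 and 12.04 in the reference, 12.01, 11.95, 11.89 and 12.01 in Irx3-/-;Irx5+/- hearts and 11.92, 12.02 and 12.02 in Irx5-/- hearts. In double mutants it was 12.27, 12.27, 11.91 and 12.16. Of these, 3 lay above all other arrays and the other, replicate 3, lay among them. The double mutants differed from the reference by 0.16 ± 0.10 (SE; adjusted p = 0.508 in limma), from Irx3-/-;Irx5+/- hearts by 0.18 ± 0.09 (SE; adjusted p = 0.654 in limma) and from Irx5-/- hearts by 0.16 ± 0.10 (SE). Without replicate 3 the difference from the reference was 0.24.

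Cdk6 was the more variable kinase. It was 9.70, 10.08 and 9.24 in the reference, 9.80, 9.57, 9.24 and 9.96 in Irx3-/-;Irx5+/- hearts, 9.97, 10.03 and 10.02 in Irx5-/- hearts and 10.21, 9.78, 9.60 and 9.75 in double mutants. The 3 Irx5-/- values were close together near the top of the range, just above all 4 Irx3-/-;Irx5+/- arrays and overlapping the reference and the double mutants. Irx5-/- hearts averaged 0.33 ± 0.22 (SE) above the reference, with a 95% interval from -0.14 to 0.81 (adjusted p = 0.586 in limma). That difference was 0.12 without Irx5+/- replicate 3 and 0.54 without Irx5+/- replicate 2.

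Cdkn1c encodes p57, an inhibitor expressed from the maternal allele in an imprinted cluster, and known for marking cells that leave the cycle. Its log2 intensity was 12.68, 12.73 and 12.80 in the reference and 12.47, 12.30, 12.61 and 12.65 in Irx3-/-;Irx5+/- hearts. It was 12.06, 12.07 and 12.19 in Irx5-/- hearts and 12.55, 12.62, 11.85 and 12.28 in double mutants. All 11 mutant arrays lay below the lowest reference array, at the closest with 12.65 against 12.68. The 3 comparisons with the reference share its arrays, so they are not separate evidence. Taken 1 comparison at a time, 5.73% of all genes did not overlap for Irx3-/-;Irx5+/-, 16.2% for Irx5-/- and 12.1% for double mutants. The share of all genes with all 3 together was not counted. The Irx5-/- arrays were low and close together, while the double mutants spread from below them to near the reference. Irx5-/- hearts differed from the reference by -0.63 ± 0.17 (SE), which makes the reference 1.55 times as high, and the adjusted p was 0.254 in limma, rank 162. For double mutants the difference from the reference was -0.42 ± 0.16 (SE; adjusted p = 0.274 in limma), and -0.26 without double-mutant replicate 3. For Irx3-/-;Irx5+/- hearts it was -0.23 ± 0.16 (SE; adjusted p = 0.9996 in limma), and -0.28 without replicate 4. The double mutants stood 0.22 ± 0.16 (SE) above Irx5-/- hearts, with overlapping arrays, and the interaction term was 0.45 ± 0.22 (SE), which did not pass. The difference from Irx5-/- hearts was 0.37 without double-mutant replicate 3, 0.12 without replicate 2 and 0.14 without replicate 1.

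Markers of endothelium and endocardium, the lining of vessels and heart chambers, followed Cdkn1c in part. Relative to the mean of all arrays, the mean of the 18 markers ran from 0.29 to 0.61 in the reference, from 0.08 to 0.47 in Irx3-/-;Irx5+/- hearts, from -0.44 to -0.15 in Irx5-/- hearts and from -0.75 to 0.14 in double mutants. Double-mutant replicate 3, lowest in Cdkn1c, was also the lowest in this mean. Double-mutant replicate 4, at -0.61, was below every Irx5-/- array in this mean but above them in Cdkn1c, at 12.28. By genotype the marker mean was -0.34 in double mutants and -0.26 in Irx5-/- hearts, while Cdkn1c was lowest in Irx5-/- hearts. Against the reference, 10.6% of all genes had an unadjusted p under 0.05 in Irx5-/- hearts and 13.5% in double mutants, in either direction. By that measure 14 of the 18 markers were lower in Irx5-/- hearts and 15 in double mutants. The list medians were -0.65 and -0.74, and 0 markers passed after adjustment by limma. Examples for Irx5-/- hearts are Plvap, of the fenestral diaphragm, at -0.97 ± 0.25 (SE) and the VEGF receptor gene Flt1 at -0.91 ± 0.25 (SE). With the marker mean as a term in the fit, chosen after the data had been seen, Cdkn1c differed by -0.22 ± 0.17 (SE) in Irx5-/- hearts and by 0.05 ± 0.17 (SE) in double mutants. That mean itself differs between the genotypes, so the term takes up part of any genotype difference. The part of these cells in the Cdkn1c values was not tested.

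**Figure D2:**
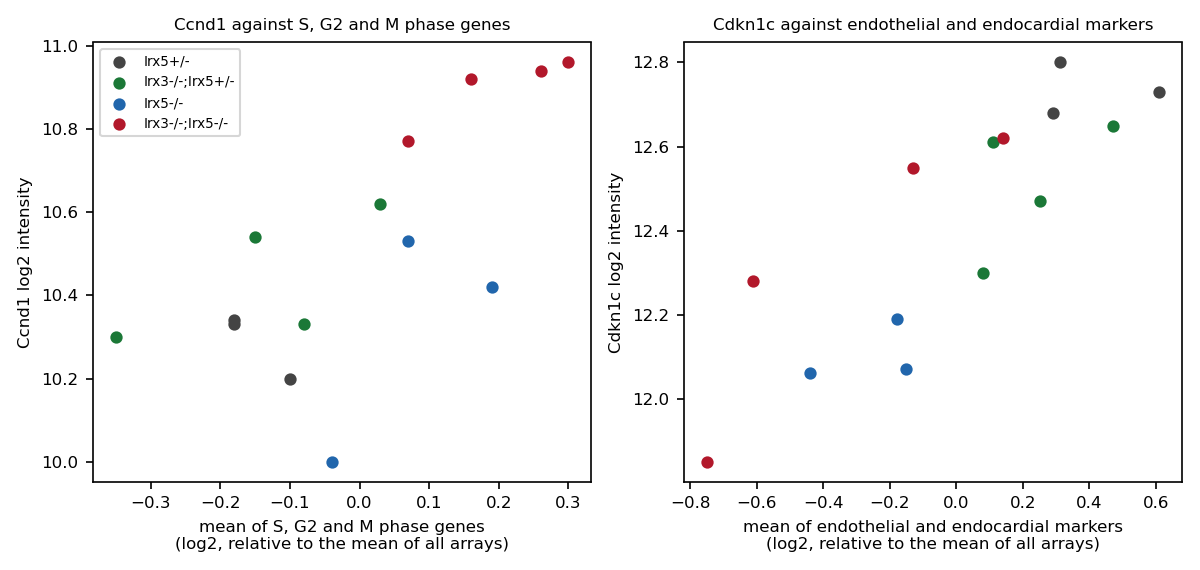
Left, log2 intensity of Ccnd1 against the mean of 23 genes of S, G2 and M phase, and right, log2 intensity of Cdkn1c against the mean of 18 endothelial and endocardial markers, with 1 point per array coloured by genotype and each list mean set relative to its average over the 14 arrays. The double mutants hold the highest Ccnd1 values, 10.77 to 10.96, at marker means from 0.07 to 0.30, and the lowest Cdkn1c value, 11.85, is at the lowest endothelial mean, -0.75.

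Cdkn1b encodes p27, an inhibitor that restrains CDK2 in resting cells. On the probe set used, it was 9.46, 9.60 and 9.95 in the reference, 9.87, 9.64, 9.59 and 9.65 in Irx3-/-;Irx5+/- hearts, 9.90, 9.87 and 9.86 in Irx5-/- hearts and 9.77, 9.68, 9.77 and 9.93 in double mutants. The reference spread over the whole range and overlapped each other genotype. Irx5-/- hearts differed from the reference by 0.21 ± 0.13 (SE; adjusted p = 0.561 in limma) and double mutants by 0.12 ± 0.12 (SE). The first of these was 0.10 without Irx5+/- replicate 1 and 0.35 without Irx5+/- replicate 3, and the second 0.01 and 0.26.

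The other probe set of Cdkn1b gave 9.87, 8.09 and 9.49 in the reference, 9.83, 9.49, 9.63 and 9.83 in Irx3-/-;Irx5+/- hearts, 10.25, 10.19 and 9.85 in Irx5-/- hearts and 8.94, 10.21, 10.53 and 10.14 in double mutants. Single arrays, Irx5+/- replicate 2 and double-mutant replicate 1, were far below the rest of their groups there and not on the probe set used. The correlation between both probe sets over the 14 arrays was 0.319, as a description of readings of the same RNA. On the other probe set Irx5-/- hearts differed from the reference by 0.94 (adjusted p = 0.45 in limma) and double mutants by 0.80 (adjusted p = 0.398 in limma). The size of any Cdkn1b difference therefore depends on the probe set, and on neither did it pass.

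**Figure D3:**
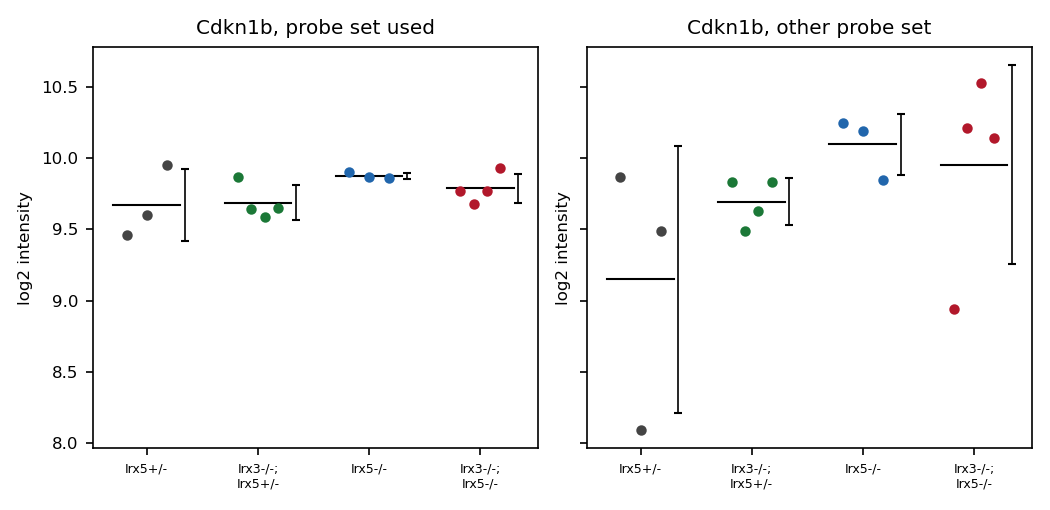
Log2 intensity of Cdkn1b on each of the 14 arrays by genotype, for the probe set used (left) and the other (right), with the group mean (line) and SD (bar). Values run from 9.46 to 9.95 on the left and from 8.09 to 10.53 on the right.

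Counted by comparison, Irx3-/-;Irx5+/- against the reference had 0 of 9 genes past the adjusted threshold in limma (0% of all genes), 0 of 9 at an unadjusted p under 0.05 (5.07% of all genes) and 1 of 9 without overlap between the arrays (5.73% of all genes), which was Cdkn1c, lower. Irx5-/- against the reference had 0 of 9 past the adjusted threshold (0% of all genes) and 1 at an unadjusted p under 0.05 (10.6% of all genes), Cdkn1c. There, 2 of 9 were without overlap, Ccnd2 and Cdkn1c, both lower, against 16.2% of all genes. A share of 2 in 9 is close to that background.

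Double mutants against the reference had 0 of 9 past the adjusted threshold, against 4 genes (0.0201%) of all. Ccnd1, higher, and Cdkn1c, lower, had an unadjusted p under 0.05 (13.5% of all genes), and the same 2 were without overlap (12.1% of all genes). Double mutants against Irx3-/-;Irx5+/- hearts had 0 of 9 past the adjusted threshold, against 1 gene (0.00502%) of all. Ccnd1 alone of the 9 had an unadjusted p under 0.05 (7.67% of all genes) and no overlap (4.82% of all genes). Double mutants against Irx5-/- hearts had 0 of 9 past the adjusted threshold (0% of all genes) and 2 at an unadjusted p under 0.05, Ccnd1 and Ccnd2, both higher, against 3.63% of all genes. In that comparison 3 of 9 were without overlap, Ccnd1, Ccnd2 and Ccnd3, against 4.11% of all genes. For the interaction, 0 of 9 passed (0% of all genes) and 1, Ccnd1, had an unadjusted p under 0.05 (4.04% of all genes).

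The median difference of the 9 genes was 0.13 for double mutants against the reference, where the median of all genes was -0.03, and 8 of the 9 were above 0. It was 0.16 against Irx5-/- hearts, where all genes had a median of 0.01, and 7 of the 9 were above 0. For the single mutants against the reference, the medians of the 9 were -0.02 and 0.00, with 4 of the 9 above 0 in each. Cdkn1c was the 1 gene below 0 in double mutants against the reference. Of the genes above 0 there, Ccnd2, Ccnd3, Ccne1, Ccne2 and Cdk6 lay within 1 SE of 0. The genes are not replicates, so these counts are a description.

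**Figure D4:**
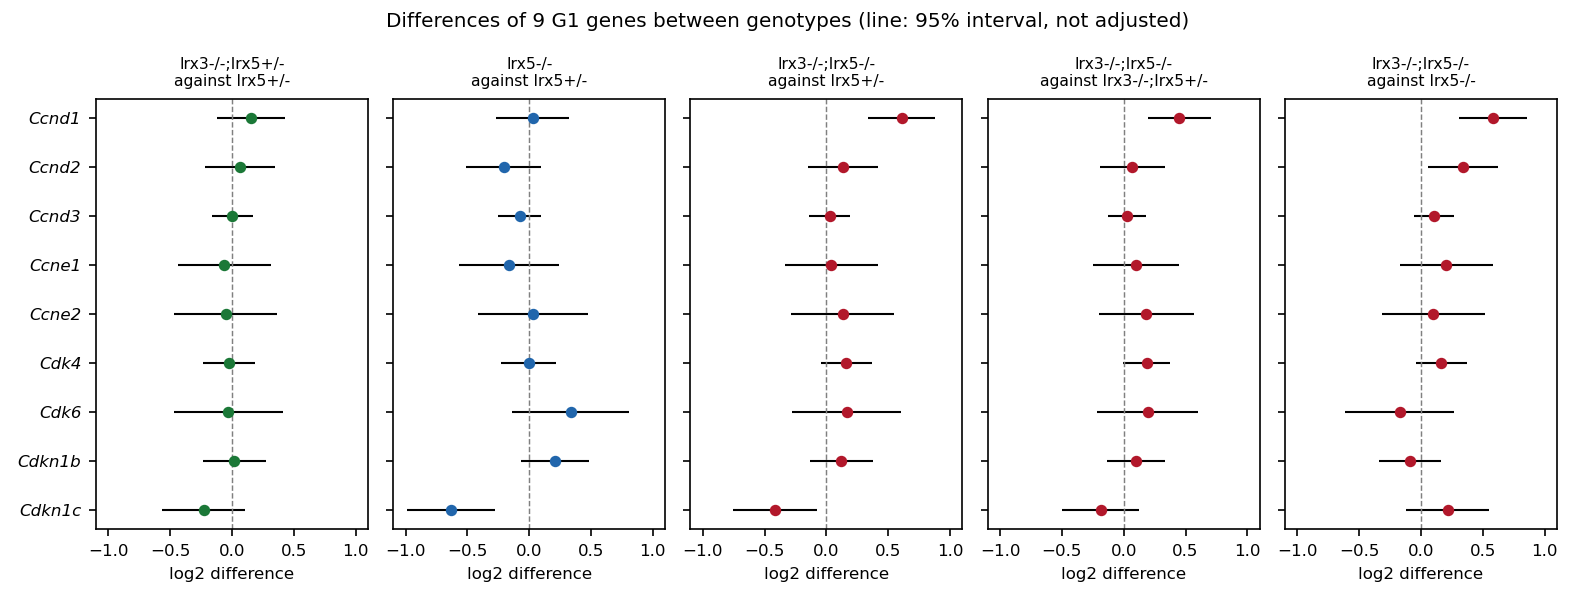
Log2 difference of the 9 measured genes in 5 comparisons of genotypes (points) with the 95% interval before adjustment (lines), and 0 as a dashed line. Ccnd1 lies at 0.61, 0.45 and 0.58 in the comparisons of the double mutants, and Cdkn1c at -0.63 in Irx5-/- hearts against Irx5+/-.

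Of 28 other genes of G1 and the restriction point, all measured, 0 passed after adjustment in any comparison by limma. At an unadjusted p under 0.05, 5 were higher and 0 lower in double mutants against the reference, with a list median of 0.04, where 13.5% of all genes had such a p in either direction. The count is near that background. Fbxw7, which marks cyclin E for destruction, stood 0.44 ± 0.12 (SE) above the reference in them, and 0.44 ± 0.12 (SE) and 0.46 ± 0.12 (SE) above it in Irx3-/-;Irx5+/- and Irx5-/- hearts. In double mutants against the reference, Cks1b, a partner of SKP2 in the destruction of p27, differed by 0.34 ± 0.11 (SE), and Mycn by 0.49 ± 0.21 (SE). Cdkn2d, an inhibitor of CDK4 and CDK6, differed by 0.56 ± 0.24 (SE) in double mutants and by 0.77 ± 0.26 (SE) in Irx5-/- hearts. Against Irx3-/-;Irx5+/- hearts, 4 of the 28 were higher and 0 lower in double mutants at an unadjusted p under 0.05, among them Tfdp1, the partner of E2F factors, at 0.35 ± 0.08 (SE) and Skp2 at 0.45 ± 0.14 (SE). That background was 7.67% of all genes. Against Irx5-/- hearts the counts were 3 and 0, against 3.63% of all genes. In Irx5-/- hearts against the reference they were 2 and 0, against 10.6%, and in Irx3-/-;Irx5+/- hearts 1 and 1, against 5.07%, the lower one being Mnat1, a subunit of the CDK-activating kinase, at -0.34 ± 0.13 (SE).

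Genes listed for S, G2 and M phase are given beside Ccnd1. Of 23 measured, 11 were higher and 0 lower in double mutants than in the reference at an unadjusted p under 0.05, with a median of 0.34, and 0 passed after adjustment by limma. Examples are the spindle checkpoint kinase gene Bub1 at 0.64 ± 0.11 (SE; adjusted p = 0.0807 in limma) and the replication licensing gene Cdc6 at 0.87 ± 0.18 (SE; adjusted p = 0.111 in limma). Against Irx3-/-;Irx5+/- hearts the counts were 11 and 0 with a median of 0.37, and against Irx5-/- hearts 1 and 0 with a median of 0.11. In Irx5-/- hearts against the reference they were 5 and 0, with a median of 0.24. The mean of these genes ran from 0.07 to 0.30 in double mutants, above all reference arrays (-0.18 to -0.10) and all Irx3-/-;Irx5+/- arrays (-0.35 to 0.03), as Ccnd1 was. It overlapped the Irx5-/- arrays (-0.04 to 0.19), where Ccnd1 did not. In Irx3-/-;Irx5+/- hearts against the reference the counts were 2 and 2. The share of all genes with an unadjusted p under 0.05 was 13.5% for double mutants against the reference and 7.67% against Irx3-/-;Irx5+/- hearts. It was 3.63% for double mutants against Irx5-/- hearts. Against the reference it was 10.6% for Irx5-/- and 5.07% for Irx3-/-;Irx5+/- hearts. The part of dividing cells in the Ccnd1 values was not tested.

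Cardiomyocyte markers were higher in the mutant genotypes than in the reference, whose own arrays spread widely. At an unadjusted p under 0.05, 17 of 18 were higher and 0 lower in double mutants than in the reference, with a median of 1.21, and 0 passed after adjustment by limma. In Irx3-/-;Irx5+/- and Irx5-/- hearts 11 and 6 of the 18 were higher by that measure and 0 lower. Shares of all genes by that measure, in either direction, were 13.5% in double mutants, 5.07% in Irx3-/-;Irx5+/- hearts and 10.6% in Irx5-/- hearts. Between double mutants and either other mutant genotype 0 of 18 had such a p. The list mean was 0.13, -0.62 and -1.69 in reference replicates 1, 2 and 3, and ran from 0.16 to 0.56 in double mutants. It ran from -0.37 to 0.42 in Irx3-/-;Irx5+/- hearts and from -0.24 to 0.72 in Irx5-/- hearts, ranges that hold reference replicate 1. The low reference arrays enter each of the counts against the reference. With the list mean as a term, Ccnd1 differed by 0.55 ± 0.17 (SE) between double mutants and reference (adjusted p = 0.391 in limma) and Cdkn1c by -0.53 ± 0.19 (SE) between Irx5-/- hearts and reference (adjusted p = 0.454 in limma). With the endothelial mean in its place, Ccnd1 differed by 0.76 ± 0.19 (SE; adjusted p = 0.421 in limma).

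For Cdkn1c, 11 of 13 neighbours in its imprinted cluster were measured. In Irx5-/- hearts against the reference 0 of the 11 had an unadjusted p under 0.05, with a median of -0.10. In double mutants 1 was higher, the histone chaperone gene Nap1l4 at 0.52 ± 0.15 (SE), and 1 lower, the growth factor gene Igf2 at -0.20 ± 0.09 (SE). For Cdkn1a, which has no value, 13 of 16 genes of the p53 response that p21 belongs to were measured. In double mutants against the reference 3 were higher at an unadjusted p under 0.05, Phlda3, Perp and Ccng1, and 1 lower, Trp53inp1, with a median of 0.00. In both lists 0 genes passed after adjustment by limma in any comparison. Among all genes, 13.5% had an unadjusted p under 0.05 in double mutants and 10.6% in Irx5-/- hearts, both against the reference.

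Other cell types overlapped between double mutants and reference in the mean of their markers. At an unadjusted p under 0.05, 4 of 12 cushion mesenchyme markers were higher and 0 lower in double mutants, 3 of 8 epicardial markers were higher and 0 lower, 2 of 7 smooth muscle markers were higher and 0 lower, and 0 of 7 erythroid and 0 of 10 macrophage markers had such a p in either direction. In Irx5-/- hearts the counts higher and lower were 1 and 0, 1 and 0, 1 and 1, 0 and 0, and 0 and 0 in the same order. The mean of the erythroid markers ran from -0.23 to 0.73 in Irx3-/-;Irx5+/- hearts and from -0.37 to -0.29 in the reference, the 1 such list without overlap in that comparison. None of these genes passed after adjustment by limma in any comparison. The counts stand beside 13.5% of all genes with an unadjusted p under 0.05 in double mutants and 10.6% in Irx5-/- hearts.

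As a description over the 14 arrays, which share the genotype groups, Cdkn1c values were most like those of Rdx (Pearson r = 0.949), Fn1 (0.919) and Mdfi (0.916). Ccnd1 values were most like those of Nxpe3 (0.848), Psmc2 (0.844) and Cenpi (0.842), the last a centromere protein gene. For Ccnd2 the first gene was 4930512B01Rik (0.871), for Ccnd3 Rpl38 (0.79), for Ccne1 Cep68 (0.849) and for Ccne2 Rpa3 (0.809). For Cdk4 it was S100a10 (0.85), for Cdk6 Smap2 (0.853) and for Cdkn1b Pycrl (0.886).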

How the data were processed

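Per the submitters' processing notes and the file headers, the authors computed the deposited log2 intensities with RMA over all arrays together using affy, with probe sets that had no group mean above 3 left out of their limma statistics. Versions, and the genome build of the annotation, are not stated in what was used here. Among the deposited values, 0 probe sets fell under that floor. Of 28763 probe sets, 21776 carried 1 gene symbol, 1592 several and 5395 none, and 21685 were matched by gene ID to RefSeq names. For 998 genes with several probe sets the one with the highest mean was kept, which left 19931 genes.

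Group means over 14 arrays were fitted with limma 3.58.1 in R 4.3.3 (10 residual degrees of freedom), for 6 comparisons. P-values were adjusted by Benjamini-Hochberg over the 19931 genes, with a threshold of 0.05. The fit was also run on simulated data with shifts larger than the member differences, so it does not bear on the power for those. Nothing in the labels ties each array to its own embryo, so the p-values reflect spread between arrays that may be technical. Precision is limited by how few arrays there are. Named genes were the members, up to 4 genes per list and comparison with the smallest p, and up to 3 genes per member with the highest correlation. The members and lists were chosen with earlier results of these data known. The alternatives were a replicate block, a filter on low signal, the mean of a gene's probe sets, median centring, an intensity trend with robust variances, array weights, fits of the groups compared alone, the cardiomyocyte marker mean as a term, and leaving out each array. After the data had been seen, the other Cdkn1b probe set and the endothelial marker mean as a term were added.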

Additional observations from a re-analysis of the deposited data

How the results depend on the processing

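Under 924 alternative values of the 54 member differences, 441 of them from leaving out 1 array, 0 members passed an adjusted p of 0.05 in limma. The lowest adjusted p was 0.0994, for Ccnd1 in double mutants against Irx5+/- with the filter on low signal. 2 differences reversed. With the endothelial marker mean as a term, added after the data had been seen, Cdkn1c stood at 0.0527 for double mutants against Irx5+/- and at 0.1696 for double mutants against Irx3-/-;Irx5+/- hearts. No direction was read for 28 differences that lay within 1 SE of 0. Among the alternatives of these, 8 values, of Ccnd2, Cdk4, Cdk6 and Cdkn1b, moved by more than 1 SD. The other differences were judged only by direction and by whether they passed, so shifts in their size are not in that count. In Irx5-/- hearts against Irx5+/-, Cdkn1b went from 0.21 to 0.94 on the other probe set. Cdkn1c there went from -0.63 to -0.22 with the endothelial term.

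Counts over all genes moved more. For double mutants against Irx5+/- the count of 4 genes became 0 with the replicate block, 2 with the mean of a gene's probe sets, 7 with array weights, 15 with only the groups compared, 0 with the cardiomyocyte term and 0 with the endothelial term. It ran from 0 to 23 when 1 array was left out, with 0 without Irx5+/- replicate 2, 1 without double-mutant replicate 3 or 4, 10 without double-mutant replicate 2 and 23 without Irx5+/- replicate 1. For double mutants against Irx3-/-;Irx5+/- the count of 1 became 0 with the replicate block, the mean of probe sets, median centring, only the groups compared, the cardiomyocyte term and the endothelial term, and it was 0 to 0 without any 1 array. For Irx5-/- against Irx5+/- the count of 0 ran from 0 to 1, with 1 without Irx5+/- replicate 1 or Irx5-/- replicate 2. For double mutants against Irx5-/- the count of 0 became 2 with the intensity trend and robust variances, and ran from 0 to 1, with 1 without double-mutant replicate 4. Why these counts moved was not tested.

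Arrays with the same replicate number did not deviate together. Their residual correlations ran from -0.179 to 0.191 (median -0.0554, 19 pairs), against a median of 0.0207 for 54 pairs with different numbers. With the replicate block, Ccnd1 in double mutants against Irx5+/- lay at 0.58 (adjusted p = 0.255 in limma) and Cdkn1c in Irx5-/- against Irx5+/- at -0.63 (adjusted p = 0.417 in limma).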
